A study of Mus musculus with 13 samples.

Results

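Mouse embryonic fibroblasts depleted of Setdb1 were compared with and without the DNA methylation inhibitor 5-azacytidine (5-aza) by sequencing of their poly(A) RNA. The members are the 6 libraries whose titles name a Setdb1 hairpin, out of 13 in the series, and they form 3 pairs that share a hairpin and a replicate letter. Replicates A and B carried shSetdb1.4, replicate 1 carried shSetdb1.6, and 1 library of each pair came from cells given 5-aza. Values for 3 cultures are given in the order A, B, shSetdb1.6 throughout. Per the study's methods, primary fibroblasts of E13.5 embryos were transduced with hairpin retroviruses, selected with puromycin, given 5-aza for 24 h from day 3, and harvested on day 7. The dose for these cultures is not given in the sources used here. The cells that received Setdb1 hairpins were female, carried a gene-trap allele of Setdb1 (Setdb1+/gt), an X chromosome with the Xist delta-A allele and a PGK X chromosome. Every library of this comparison therefore shares the reduced Setdb1 dose, and only the drug differs within a pair. The 6 control libraries, with and without 5-aza, carried a non-silencing hairpin (A, B) or a hairpin against luciferase (1). The study places the non-silencing hairpin in Setdb1+/+ cells and does not give the genotype for the luciferase hairpin. Whether the 3 cultures were separate embryos is not stated, so p-values measure the spread between these libraries, which may be technical.

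5-azacytidine is a cytidine analogue that is built into nucleic acids and traps DNA methyltransferases, so that DNA methylation is lost as cells divide. Genes whose promoters are kept silent by methylation in body cells, such as germline genes, are known targets, and the drug also gives rise to double-stranded RNA sensing, DNA damage responses and slower division. Setdb1 is a methyltransferase for lysine 9 of histone H3 that silences retroelements and germline genes, partly in parallel with DNA methylation. The parts of the hairpins that define the depleted gene are shown because every library below carries 1 of them. In the sense of the mRNA, 5′ to 3′, they read
shSetdb1.4: gacagatgactttgcagacaaa
shSetdb1.6: gaaaagcagttctcaagatcta
Each 22-base target occurs in the coding sequence of the 3 protein-coding Setdb1 transcripts of the GENCODE M21 annotation. shSetdb1.4 matches exon 16, at chr3:95327805-95327826 of GRCm38 on the minus strand. shSetdb1.6 matches exon 5, at chr3:95348003-95348024 on the same strand.

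Setdb1 itself stood at 15.4, 14.7 and 12.1 RPM (reads per M reads of the library, M standing for mega) without 5-aza and at 14.5, 13.7 and 10.4 RPM with it. Its log2 fold change was -0.13 ± 0.11 (limma estimate ± SE, as in all such values below; adjusted p = 0.388). The level was lower with the drug in 3 of 3 pairs, and with the culture as a block the adjusted p was 0.0365. Without the 5-aza library of shSetdb1.6 the sign of the difference turned, to 0.01. The 6 libraries held 41.9 to 58.8 M reads by the steps of their values, 36.4 to 51.3 M of them in genes. A level of 1 RPM is 42 to 59 reads at this depth. The A libraries stood somewhat apart, with 51 genes at least 2-fold from the mean of the other replicates in the untreated group and 82 in the 5-aza group. The other 4 Setdb1 libraries had between 2 and 22 such genes.

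The test covered 13134 of 25965 gene intervals, those that reached 1 RPM in 3 or more of the 12 hairpin libraries, and called 28.9% of them at an adjusted p under 0.05. The drug raised 2805 genes (21.4%) and lowered 987 (7.51%). Most steps were small, with a median size of 0.28 on the log2 scale among called genes. At least 2-fold changes numbered 182, 131 up and 51 down. Genes under 1 RPM in every untreated hairpin library could enter only through treated ones, so their rises follow in part from the filter. Of 305 tested genes with a mean under 1 RPM in untreated Setdb1 hairpin cells, 67 were called and rose at least 2-fold. Without a test, 43.4% of all genes had 3 treated values that did not overlap the 3 untreated values. The median of all genes lay at 0.058, and the split of the calls depended on that offset. In 3 of 3 pairs 5942 of the 13134 genes were higher with the drug and 3009 were lower. When each library was centred on its median gene, 14% of genes were raised and 12.7% lowered, so 52.3% of the calls were rises in place of 74%. With the culture as a block 28.3% were raised and 11.9% lowered. After centring, all 987 lowered genes and 1833 of the raised ones kept their call. Each list below is therefore given both as deposited and after this centring. Its counts are to be read beside the 21.4% raised and 7.51% lowered of all genes, and several lists lie near these shares. Of the 182 genes that changed at least 2-fold, 180 kept their call after centring, 182 with the culture as a block and 153 whichever of the 12 libraries was omitted. The count of called genes fell to 2214 without the untreated A library and to 2191 without the 5-aza B library. In what follows, a gene said to have risen or fallen kept its call on omission of any library unless the exception is stated. In these bulk libraries, fewer cells that express a gene and less of its RNA per cell cannot be told apart.

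**Figure D1:**
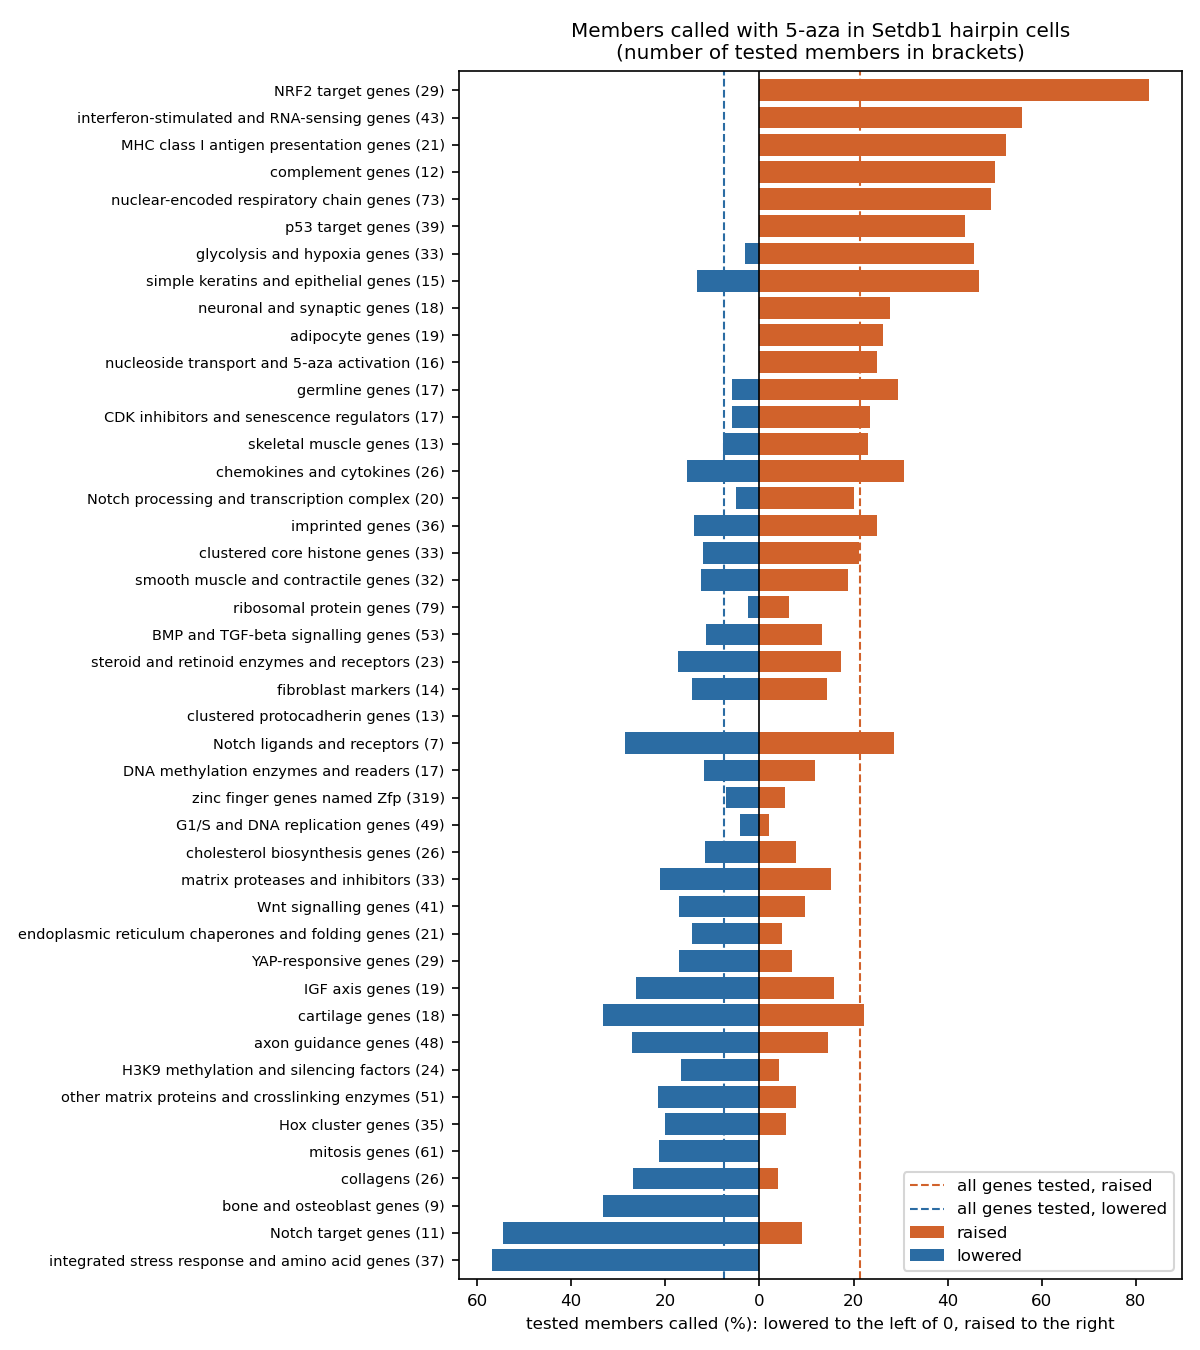
Share of the tested members of each gene list that were lowered (blue, left of 0) or raised (orange, right of 0) by 5-aza in Setdb1 hairpin cells, for lists with at least 7 tested members. Dashed lines mark all genes tested (7.51% lowered, 21.4% raised); NRF2, interferon, MHC class I, complement and respiratory chain genes reach furthest to the right, and amino acid stress genes and Notch targets furthest to the left.

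Several of the largest rises were of genes under 1 RPM in untreated cells. Dazl, an RNA-binding protein of germ cells (chr17:50279394-50293599), had 0, 3 and 3 reads without 5-aza and 208, 174 and 179 reads with it. The ratio of the pooled levels was 91.0, with a 95% exact interval of 41.5 to 249.0 that covers counting error only. Tex19.1, a germ cell and placental protein that restrains retrotransposons (chr11:121146143-121148319), stood at 0.189, 0.289 and 0.262 RPM without 5-aza and at 1.56, 1.69 and 2.26 RPM with it (2.90 ± 0.28, adjusted p = 8.58e-05). The treated and untreated values did not overlap for either gene, in either hairpin, which the rule for naming the largest rises required. Of 80 germline genes listed, 17 were expressed highly enough to test. Among them 5 rose and 1 fell (4 and 1 after centring, 6 and 2 with the culture as a block), a median of 0.27 beside 0.058 for all genes, and 4 to 6 rose when a library was left out. Dazl and Tex19.1 were under 1 RPM in every untreated hairpin library, so they passed the filter only through treated ones. Their rises are thus built into this count and median, and members silent in all libraries could not enter. Stag3, a cohesin subunit of meiosis, rose by 0.81 ± 0.10 on the log2 scale, from 2.42, 2.33 and 2.65 to 4.08, 4.32 and 4.58 RPM. Cpeb1, which controls translation in oocytes, rose by 0.48 ± 0.06. Mei4, needed for the DNA breaks of meiosis, was lower, at 2.42, 1.82 and 2.15 RPM without and 1.32, 0.896 and 1.05 RPM with the drug (-0.97 ± 0.24). That call was lost without the untreated A library (adjusted p = 0.0515) or the 5-aza B library (adjusted p = 0.0559).

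The promoters of the germline pair are shown because methylation of CpG sites is what the drug removes. They run from 250 bases before the start of transcription to 50 after it, in the RefSeq annotation of GRCm38.p6, 5′ to 3′ on the gene's strand, with CpG in capitals. Dazl lies on the minus strand (chr17:50293571-50293870) and its window holds 28 CpG. Tex19.1 lies on the plus strand (chr11:121145893-121146192) and its window holds 16.
Dazl: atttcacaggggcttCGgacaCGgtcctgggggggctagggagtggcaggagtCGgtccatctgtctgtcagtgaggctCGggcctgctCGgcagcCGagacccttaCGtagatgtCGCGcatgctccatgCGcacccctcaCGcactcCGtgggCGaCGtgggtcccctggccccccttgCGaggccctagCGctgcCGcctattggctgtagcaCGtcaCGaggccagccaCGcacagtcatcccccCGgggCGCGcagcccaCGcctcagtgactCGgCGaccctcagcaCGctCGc
Tex19.1: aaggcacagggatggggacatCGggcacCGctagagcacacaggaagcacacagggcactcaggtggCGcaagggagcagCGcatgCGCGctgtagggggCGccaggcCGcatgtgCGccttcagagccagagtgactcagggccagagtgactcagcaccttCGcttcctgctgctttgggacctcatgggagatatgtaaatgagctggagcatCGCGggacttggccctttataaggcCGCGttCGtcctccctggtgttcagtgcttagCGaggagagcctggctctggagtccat
The median over 9894 tested genes with a window was 22 CpG. Windows were found for 68.7% of the genes raised at least 2-fold and for 60.8% of those lowered at least 2-fold. Under 80% were covered, so a comparison of these sets by CpG content is void.

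Other genes of low level rose in the same libraries. Rhox5, an X-linked homeobox gene of reproductive tissues, went from 0.694, 0.595 and 0.692 RPM to 4.58, 3.46 and 4.62 RPM (2.67 ± 0.24, adjusted p = 5.97e-05). Apob, the lipoprotein of liver and gut (chr12:7977648-8016835), went from 1.3, 1.53 and 1.46 to 11.2, 10.3 and 8.69 RPM (2.81 ± 0.13, adjusted p = 3.62e-07). Every treated library exceeded the highest untreated library by several-fold for Apob and Rhox5, but separate groups were a condition of their choice. Rhox5 was under 1 RPM in every untreated hairpin library and passed the filter only through treated ones. Asb5, an adaptor of ubiquitin ligases known from muscle, rose from 0.737, 0.544 and 0.572 to 2.58, 3.05 and 3.53 RPM (2.31 ± 0.19). Dnahc6, a dynein heavy chain of cilia, rose from 0.126, 0.221 and 0.143 to 1.12, 1.71 and 1.9 RPM (3.28 ± 0.41). Hsd3b6, a steroid dehydrogenase, rose from 0.189, 0.476 and 0.143 to 1.36, 2.93 and 2.32 RPM (3.16 ± 0.69, adjusted p = 0.00676). These last genes were under 1 RPM in all 3 untreated cultures. Prl2c3, a proliferin (a secreted relative of prolactin), stood at 1.98, 7.21 and 6.96 RPM without and 21.3, 54.1 and 47.1 RPM with 5-aza (3.03 ± 0.59, adjusted p = 0.0038). Its untreated A culture was lowest, and that culture was also lowest with the drug. Prl2c2 moved alike (3.15 ± 0.65), but the proliferins are near-identical copies between which reads may be split. Of the 3 prolactin family genes tested, 2 rose, and Prl3a1 was not called (-1.09 ± 0.43), but was called lower with the culture as a block (adjusted p = 0.000993). Selp, the adhesion receptor P-selectin, rose from 0.589, 2.26 and 2 to 4.72, 10.7 and 10.7 RPM (2.56 ± 0.55).

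Of the genes with predicted or clone-based names, AC242409.1 (chr14:19415857-19418930) rose from 0.147, 0.119 and 0.119 to 11.6, 12.6 and 11.1 RPM (6.52 ± 0.32). Gm10800 (chr2:98666547-98667301) rose from 0.505, 0.646 and 0.477 to 37.9, 35.7 and 29.6 RPM (5.99 ± 0.16). All 3 treated cultures were far above all 3 untreated ones for both, and separate groups were again a condition of their choice. 3830417A13Rik (2.87 ± 0.19), Gm11019 (1.85 ± 0.15) and 1110059M19Rik (1.47 ± 0.27) also rose. Whether reads from elsewhere in the genome were placed in any of these intervals was not tested.

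**Figure D2:**
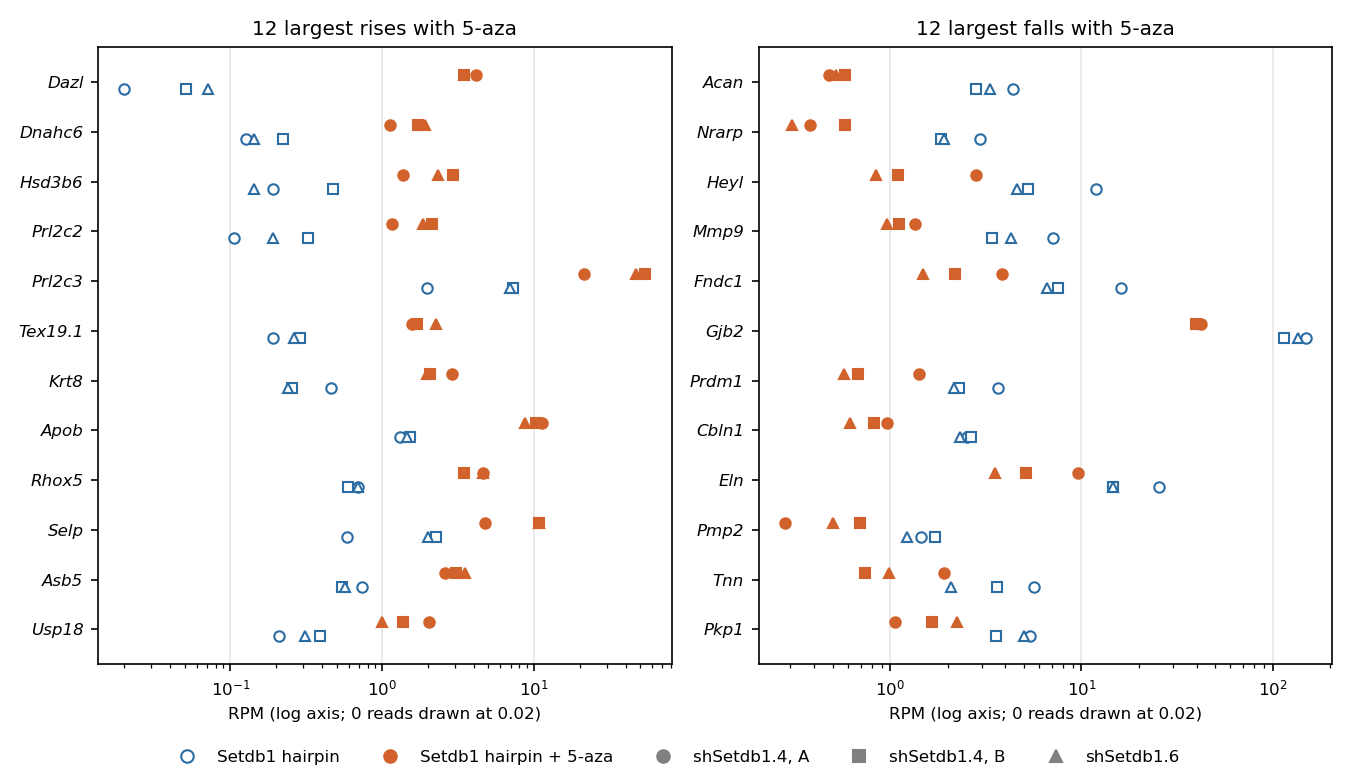
RPM on a log axis of the 12 genes that rose most and the 12 that fell most with 5-aza among named genes, in each of the 6 libraries; open blue symbols are untreated, filled orange ones treated, and the shape gives the culture. Dazl had 0 reads in the untreated A library and is drawn there at 0.02. Treated and untreated symbols do not overlap for any of the 24 genes, because this was a condition of their choice.

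Keratins of simple epithelia rose as well. Krt8, a keratin of simple epithelia, rose from 0.463, 0.255 and 0.238 to 2.88, 2.05 and 1.96 RPM (2.89 ± 0.27), and its partner Krt18 from 9.07, 10.1 and 9.66 to 20.5, 19.7 and 18.6 RPM (1.03 ± 0.10, adjusted p = 8.58e-05). Of 15 tested keratin and epithelial genes, 7 rose and 2 fell (7 and 3 after centring), with a median of 0.37. Krt8 reached 1 RPM only in the treated Setdb1 hairpin libraries and passed the filter only through them. Its rise is thus built into this count and median. The count that rose was 3 without the untreated A or the 5-aza B library and 4 without the 5-aza library of shSetdb1.6. Pkp1, a plaque protein of desmosomes, fell from 5.41, 3.59 and 5.03 to 1.06, 1.65 and 2.23 RPM (-1.55 ± 0.36), and Sfn, the epithelial 14-3-3 sigma, fell by 0.44 on the log2 scale.

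Interferon-stimulated genes were raised in all cultures. Of 43 tested interferon-stimulated and RNA-sensing genes, 24 rose and none fell (18 and none after centring). Their median was 0.31 (0.51, 0.29 and 0.29 within the cultures), and 37 of the 43 were higher in 3 of 3 pairs, beside 5942 of all 13134 genes. Usp18, which trims the ubiquitin-like protein ISG15 from its targets, rose from 0.21, 0.391 and 0.31 to 2.04, 1.37 and 0.997 RPM (2.26 ± 0.40, adjusted p = 0.00246). Isg15 rose from 0.4, 0.612 and 0.334 to 2.7, 1.39 and 1.53 RPM (2.05 ± 0.39, adjusted p = 0.00334). The A culture had the highest treated value for both, and the groups did not overlap, which for Usp18 was a condition of its choice. Ifit3 and Ifit1, which bind viral RNA, rose by 1.75 ± 0.35 and 1.64 ± 0.36. Oasl2, a relative of the double-stranded RNA sensors, rose by 1.71 ± 0.44 and Irf7, a transcription factor of interferon induction, by 1.52 ± 0.23. Ifih1, the sensor MDA5, rose from 5.51, 5.76 and 5.25 to 7.96, 7.07 and 7.21 RPM (0.43 ± 0.10). Ddx58, the sensor RIG-I, was not called, at 43.1, 40.8 and 38.6 RPM and 54.1, 42.4 and 40.7 RPM (0.15 ± 0.11, adjusted p = 0.321). Irf1 and Irgm1, known mainly from the response to interferon gamma, were not called either (-0.03 ± 0.17 and -0.05 ± 0.14). Levels of the leading genes were low throughout, at a few RPM. Of 61 list members with values, 43 passed the filter. Usp18 was under 1 RPM in every untreated hairpin library and passed only through treated ones, so its rise is built into the count. The count that rose was 15 without the untreated library of shSetdb1.6.

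The response element bound by interferon-activated factors was searched for in the promoter windows as a pair of GAAA half-sites with any 2 bases between them, on both strands, and overlapping matches were counted. It occurred in 17 of the 37 list members with a window (45.9%), in 3.52% of the 9894 tested genes with a window and in 3.44% of all 32851 windows. Windows were matched for 75.3% of the tested genes, too few for a comparison with them. Of the 17 members with the motif 10 rose, with a median log2 fold change of 0.44, and of the 20 without it 12 rose, with a median of 0.30. The windows of 3 leading genes are shown with the matches in capitals. They lie at chr4:156200769-156201068 (Isg15, minus strand), chr19:34640639-34640938 (Ifit1, plus) and chr19:34583279-34583578 (Ifit3, plus). Isg15 holds 3 matches that overlap each other, and the Ifit genes 2 each.
Isg15: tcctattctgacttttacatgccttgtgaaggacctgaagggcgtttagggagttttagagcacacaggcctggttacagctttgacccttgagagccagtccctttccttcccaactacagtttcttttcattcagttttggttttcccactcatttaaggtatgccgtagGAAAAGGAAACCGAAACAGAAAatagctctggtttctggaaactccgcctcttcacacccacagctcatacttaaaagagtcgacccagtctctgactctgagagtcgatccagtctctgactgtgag
Ifit1: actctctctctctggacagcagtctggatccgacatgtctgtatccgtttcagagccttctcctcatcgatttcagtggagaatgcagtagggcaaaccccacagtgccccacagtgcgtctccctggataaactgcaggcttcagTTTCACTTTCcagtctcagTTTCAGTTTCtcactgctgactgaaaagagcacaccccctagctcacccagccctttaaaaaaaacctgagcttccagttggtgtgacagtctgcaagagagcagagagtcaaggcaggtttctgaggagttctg
Ifit3: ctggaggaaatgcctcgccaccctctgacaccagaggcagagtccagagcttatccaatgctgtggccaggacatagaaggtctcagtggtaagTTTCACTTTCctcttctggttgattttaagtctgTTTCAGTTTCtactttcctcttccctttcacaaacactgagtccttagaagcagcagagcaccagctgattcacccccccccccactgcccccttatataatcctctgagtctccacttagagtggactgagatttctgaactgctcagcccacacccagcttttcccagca

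Antigen presentation moved with the interferon genes. Of 21 tested MHC class I and processing genes 11 rose and none fell (10 and 1 after centring), with a median of 0.35, and 10 or 11 rose when any 1 library was left out, with 1 fall without the untreated shSetdb1.6 library. Psmb8, an immunoproteasome subunit, rose from 0.905, 0.595 and 0.763 to 2.06, 1.69 and 1.69 RPM (1.28 ± 0.17, adjusted p = 0.000523). Nlrc5, the transactivator of MHC class I genes, rose by 1.19 ± 0.29, and Tap1, which pumps peptides into the endoplasmic reticulum, by 0.54 ± 0.13. H2-D1, a classical class I heavy chain, rose from 29.1, 29.4 and 33.4 to 43.5, 44.5 and 49.4 RPM (0.58 ± 0.07). The class I genes are close paralogs that can share reads. B2m, the invariant light chain, was not called, at 397, 444 and 355 RPM and 397, 349 and 346 RPM. Complement genes rose in 6 of 12 cases (5 after centring) and none fell, while 1 fell with the culture as a block. Cd55, which protects cells from complement, rose from 26.4, 34.8 and 29.2 to 55.7, 62.8 and 59.2 RPM (0.98 ± 0.16), and the receptor C3ar1 rose by 0.87 ± 0.14. Of 26 chemokines, cytokines and their enzymes, 8 rose and 4 fell (5 and 5 after centring), and 4 rose without the untreated A, the 5-aza B or the 5-aza shSetdb1.6 library, 5 without the untreated B library. Il34, a ligand of the receptor Csf1r, rose from 2.31, 2.04 and 2.22 to 5.06, 5.36 and 5.77 RPM (1.30 ± 0.10). Kitl, the ligand of Kit, rose by 0.84 ± 0.14 and Ptges, an enzyme of prostaglandin E synthesis, by 0.83 ± 0.12. Cxcl12, a chemokine that stromal cells secrete, fell from 324, 304 and 332 to 178, 182 and 184 RPM (-0.82 ± 0.10). Ccl17 and Cx3cl1 also fell (-0.87 ± 0.21 and -0.77 ± 0.18).

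Macrophage markers were slightly higher beside these immune genes, and 2 of the 3 that could be tested were called. Their summed level over 15 markers was 11.38 to 12 RPM without and 14.78 to 16.13 RPM with 5-aza. Csf1r, the receptor of Il34, rose from 7.66, 7.34 and 8.01 to 9.54, 9.02 and 9.47 RPM (0.29 ± 0.07). The lysosomal Cd68 was higher as well (0.52 ± 0.16), a call lost without the untreated A (adjusted p = 0.115), the 5-aza B (0.116) or the 5-aza shSetdb1.6 library (0.0553). Ptprc, the leukocyte antigen CD45, had at most 0.319 RPM in any of the 6 libraries, and 6 of the 15 markers, among them Emr1 and Tyrobp, stayed under 0.1 RPM. The part of such cells in the immune genes was not tested.

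Detoxification genes had the largest share of rises among lists with at least 7 tested members. NRF2 is the transcription factor of the antioxidant response. Of 29 tested targets, 24 rose and none fell (22 and none after centring), the median was 0.51, and 28 were higher in 3 of 3 pairs (5942 of all 13134 genes). Between 18 and 26 rose when 1 library was left out. Hmox1, the haem oxygenase, rose from 145, 211 and 184 to 243, 391 and 381 RPM (0.90 ± 0.21, adjusted p = 0.00977). Srxn1, which repairs oxidised peroxiredoxins, rose from 49.2, 56.1 and 55.2 to 75.9, 91.8 and 97.6 RPM (0.72 ± 0.11, adjusted p = 0.000955). The A culture was lowest in both groups for Hmox1 and Srxn1, and the step with the drug was present in each pair. Cbr3, a carbonyl reductase, rose by 0.95 ± 0.19 and the glucuronosyltransferase Ugt1a6a by 0.84 ± 0.10. Nqo1, a quinone reductase, stood at 14, 24.4 and 23.8 RPM without and 29.2, 43.2 and 42.3 RPM with the drug (0.91 ± 0.25, adjusted p = 0.0208). Its call was lost without the untreated A (adjusted p = 0.0831), the 5-aza B (0.0788) or the 5-aza shSetdb1.6 library (0.0676). Members that did not pass were Gclc (0.23 ± 0.12), Txnrd1 (0.33 ± 0.12), Gsr (0.05 ± 0.05), Gstm2 (0.07 ± 0.07) and Gstm3 (0.51 ± 0.20), enzymes of glutathione and thioredoxin metabolism. With the culture as a block, Gclc, Txnrd1 and Gstm3 passed (adjusted p = 0.0107, 0.00177 and 0.00779).

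The antioxidant response element was searched for as TGACNNNGC on both strands. It occurred in 8 of the 24 members with a window (33.3%), in 16.8% of the 9894 tested genes with a window and in 12.4% of all windows. As above, the 75.3% of tested genes with a window were too few for a comparison with them. Of the 8, 7 rose with a median of 0.39 over the 8, and of the 16 without it 14 rose, with a median of 0.55. The windows of Gclm (chr3:122245307-122245606) and Srxn1 (chr2:152105274-152105573), both on the plus strand, are shown with the match in capitals. Gclm is a subunit of the first enzyme of glutathione synthesis.
Gclm: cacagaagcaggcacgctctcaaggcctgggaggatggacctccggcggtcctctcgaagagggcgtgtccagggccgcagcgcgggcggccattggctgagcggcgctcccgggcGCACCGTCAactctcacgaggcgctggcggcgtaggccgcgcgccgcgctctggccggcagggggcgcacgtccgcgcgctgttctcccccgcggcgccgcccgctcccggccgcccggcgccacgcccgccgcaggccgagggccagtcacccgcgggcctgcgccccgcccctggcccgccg
Srxn1: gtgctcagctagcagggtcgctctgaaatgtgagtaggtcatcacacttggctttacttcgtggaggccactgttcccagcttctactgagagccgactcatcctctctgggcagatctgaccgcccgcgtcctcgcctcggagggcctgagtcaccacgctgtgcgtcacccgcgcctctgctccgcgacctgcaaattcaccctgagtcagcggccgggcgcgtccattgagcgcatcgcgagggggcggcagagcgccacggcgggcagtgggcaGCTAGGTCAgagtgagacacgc

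Mitochondrial and glycolytic genes rose in part. Of 73 nuclear-encoded respiratory chain genes 36 rose and none fell (23 and none after centring), with a median of 0.17, and 59 were higher in 3 of 3 pairs (5942 of all 13134 genes). Ndufa7, a complex I subunit, rose from 23.8, 24.8 and 26.2 to 32.5, 32.5 and 33 RPM (0.39 ± 0.06, adjusted p = 0.00167). Ndufa11 and Ndufb6 of the same complex rose by 0.39 ± 0.05 and 0.41 ± 0.08, and Atp5j2 of the ATP synthase by 0.37 ± 0.07. The count that rose was 18 without the untreated A library, 23 without the 5-aza B library and 20 without the 5-aza library of shSetdb1.6. Glycolysis and hypoxia genes rose in 15 of 33 cases and 1 fell (9 and 1 after centring, 22 and 3 with the culture as a block). Pfkfb4, which sets the rate of glycolysis, rose from 8.02, 9.99 and 11 to 12.5, 17.3 and 18.9 RPM (0.74 ± 0.18), and Bnip3l, a receptor for the removal of mitochondria, rose by 0.30 ± 0.04. Vegfa, the angiogenic factor, was the member called lower (-0.25 ± 0.09, adjusted p = 0.044). On omission of single libraries it lost that call in 7 of 12 cases, with an adjusted p of up to 0.161.

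Targets of p53 were raised, and its own RNA was not called. Of 39 tested, 17 rose and none fell (13 and 1 after centring, 20 and 2 with the culture as a block), with a median of 0.16. Trp53 stood at 115, 115 and 120.1 RPM and 117, 112 and 119.5 RPM (-0.01 ± 0.05, adjusted p = 0.944). Mdm2, the ubiquitin ligase of p53, rose from 263, 312 and 273 to 332, 402 and 379.7 RPM (0.39 ± 0.10, adjusted p = 0.0114; 0.0531 without the 5-aza B library). Ccng1 rose by 0.30 ± 0.06, Gdf15, a stress-induced cytokine, by 0.95 ± 0.21, and Ptp4a3 by 0.53 ± 0.07. The count that rose was 11 without the untreated A library and 9 without the 5-aza B library, and 1 fell without the 5-aza A or the untreated luciferase control library. Cdkn1a, the inhibitor p21, was 596, 650.2 and 547 RPM without and 730.4, 703 and 645 RPM with 5-aza (0.21 ± 0.07, adjusted p = 0.0336). It lost its call without the untreated A (adjusted p = 0.0844), untreated shSetdb1.6 (0.119), 5-aza A (0.0936) or 5-aza B library (0.101), and after centring the adjusted p was 0.104. Of 17 CDK inhibitors and senescence regulators, 4 rose (23.5%, beside 21.4% of all genes) and 1 fell. After centring 2 rose and 4 fell, and with the culture as a block 6 and 4. Without the untreated A, the untreated shSetdb1.6 or the 5-aza B library 2 rose, and without the 5-aza shSetdb1.6 library 2 fell. Cdkn1b, the inhibitor p27, fell from 41.4, 41.1 and 44.3 to 33.1, 28 and 29.2 RPM (-0.49 ± 0.07, adjusted p = 0.000537).

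Amino acid supply genes were lowered together. Of 37 tested genes of the integrated stress response and of amino acid uptake and synthesis, 21 fell and none rose (23 and none after centring), with a median of -0.21. In 3 of 3 pairs 31 of them were lower, beside 3009 of all 13134 genes. Slc7a5, a transporter of large neutral amino acids, fell from 227, 162 and 187 to 139.7, 108 and 114 RPM (-0.67 ± 0.16, adjusted p = 0.0106). Nupr1, a stress-induced chromatin protein, fell from 111, 99.9 and 97.1 to 71.9, 65.6 and 66.1 RPM (-0.59 ± 0.10, adjusted p = 0.00192). Untreated and treated values were separate for both, and the A culture was highest in each group. Chac1, which degrades glutathione, fell by 0.55, Asns, the asparagine synthetase, by 0.37, and Aldh18a1 of proline synthesis by 0.43 on the log2 scale. Atf4, the transcription factor that drives these genes, was 272, 260.5 and 257 RPM without and 244, 227 and 235 RPM with the drug (-0.16 ± 0.04, adjusted p = 0.0155). It lost its call without the untreated A (adjusted p = 0.0674) or the 5-aza B library (0.0711). Atf3, Ddit3 and Sesn2, other stress-induced members, were not called (-0.01 ± 0.17, 0.13 ± 0.06 and 0.00 ± 0.08). The count that fell was 11 without the untreated A and 11 without the 5-aza B library.

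Chaperones of the endoplasmic reticulum moved both ways. Of 21 tested, 1 rose and 3 fell (1 and 8 after centring, 4 and 3 with the culture as a block), and 2 rose without the untreated A or shSetdb1.6 library. Herpud1, of the degradation pathway, fell from 58.6, 52.7 and 54 to 47.6, 44.4 and 44.9 RPM (-0.27 ± 0.04), and the chaperone Hspa5 fell by 0.17 on the log2 scale, while the sensor Ern1 rose by 0.21 ± 0.05. Cholesterol synthesis genes rose in 2 and fell in 3 of 26 cases (2 and 4 after centring). With the culture as a block 9 fell, none fell without the untreated A, the 5-aza B or the 5-aza shSetdb1.6 library, and 8 fell without the 5-aza A library. Tm7sf2, a sterol reductase, rose from 4.29, 4.03 and 4.32 to 6, 5.51 and 5.75 RPM (0.45 ± 0.07), and Hsd17b7 by 0.28 ± 0.05. Ribosomal protein genes rose in 5 and fell in 2 of 79 cases, against 21.4% and 7.51% of all genes. With the culture as a block 14 rose, after centring 1 rose and 4 fell, and 1 to 14 rose when a library was left out: 14 without the untreated shSetdb1.6 library, 8 without either 5-aza A library, and at most 3 without 7 of the other libraries. Between 0 and 2 fell, and 0 without the untreated B or the 5-aza B library.

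Notch target genes and a Notch ligand were lowered. Notch receptors are cut by gamma-secretase after binding a ligand on a neighbouring cell, and the freed part joins Rbpj and Maml proteins at target genes. Jag1, a ligand, fell from 152, 132 and 114 to 77.1, 73.5 and 66.3 RPM (-0.87 ± 0.09, adjusted p = 0.000179). Among receptors Notch4 rose from 0.631, 0.714 and 0.882 to 1.28, 1.27 and 1.4 RPM (0.84 ± 0.16), Notch2 (0.05 ± 0.07) and Notch3 (0.06 ± 0.17) were not called, and Notch1 was lower (-0.38 ± 0.12, adjusted p = 0.0306). The Notch1 call was lost without the untreated A (adjusted p = 0.123), the untreated shSetdb1.6 (0.0506), the 5-aza B (0.0887) or the 5-aza shSetdb1.6 library (0.105). In all, 2 of 7 tested ligands and receptors rose and 2 fell, also after centring, and 1 fell in the fits that lost Notch1. Of 20 genes of receptor processing and of the transcription complex 4 rose and 1 fell (2 and 3 after centring, 6 and 2 with the culture as a block). Without the untreated A, the untreated shSetdb1.6 or the 5-aza shSetdb1.6 library 2 rose, and without the control 5-aza A library 3 fell. Rbpj, the DNA-binding subunit, rose from 175, 150.3 and 167 to 211, 199 and 204 RPM (0.32 ± 0.06), Psen2, a catalytic subunit of gamma-secretase, rose by 0.36 ± 0.08, and the coactivator Maml2 fell by 0.48 on the log2 scale.

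Of 11 tested Notch targets 6 fell and 1 rose, the same number after centring, and 5 or 6 fell when any 1 library was left out. In the fit with the culture as a block 6 fell and 3 rose, and without the 5-aza A library 2 rose. Nrarp, a feedback regulator of the receptor's intracellular part, fell from 2.95, 1.84 and 1.91 to 0.38, 0.577 and 0.307 RPM (-2.42 ± 0.30, adjusted p = 0.000382). Heyl, Hey2 and Hey1 encode basic helix-loop-helix repressors. Heyl fell from 11.9, 5.25 and 4.58 to 2.82, 1.09 and 0.844 RPM (-2.26 ± 0.53, adjusted p = 0.0091), Hey2 from 9.34, 8.57 and 7.13 to 3.36, 2.89 and 2.59 RPM (-1.50 ± 0.18, adjusted p = 0.000305) and Hey1 from 3.85, 2.96 and 3.24 to 1.56, 2.05 and 1.8 RPM (-0.89 ± 0.12, adjusted p = 0.000593). The untreated A culture had the highest Heyl, and its treated value was also highest. Each pair showed the step, which follows from separate groups, a condition of its choice. Myc fell by 0.24 on the log2 scale. Hes1, of the same repressor family, was not called, at 48.1, 53.7 and 49.1 RPM and 43.5, 51.1 and 45.1 RPM (-0.11 ± 0.08, adjusted p = 0.289). Ccnd1, cyclin D1, rose from 466, 539.8 and 576 to 742, 814 and 919 RPM (0.65 ± 0.11, adjusted p = 0.00237). Promoter windows covered 45.5% of the 11 targets, so none is compared.

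**Figure D3:**
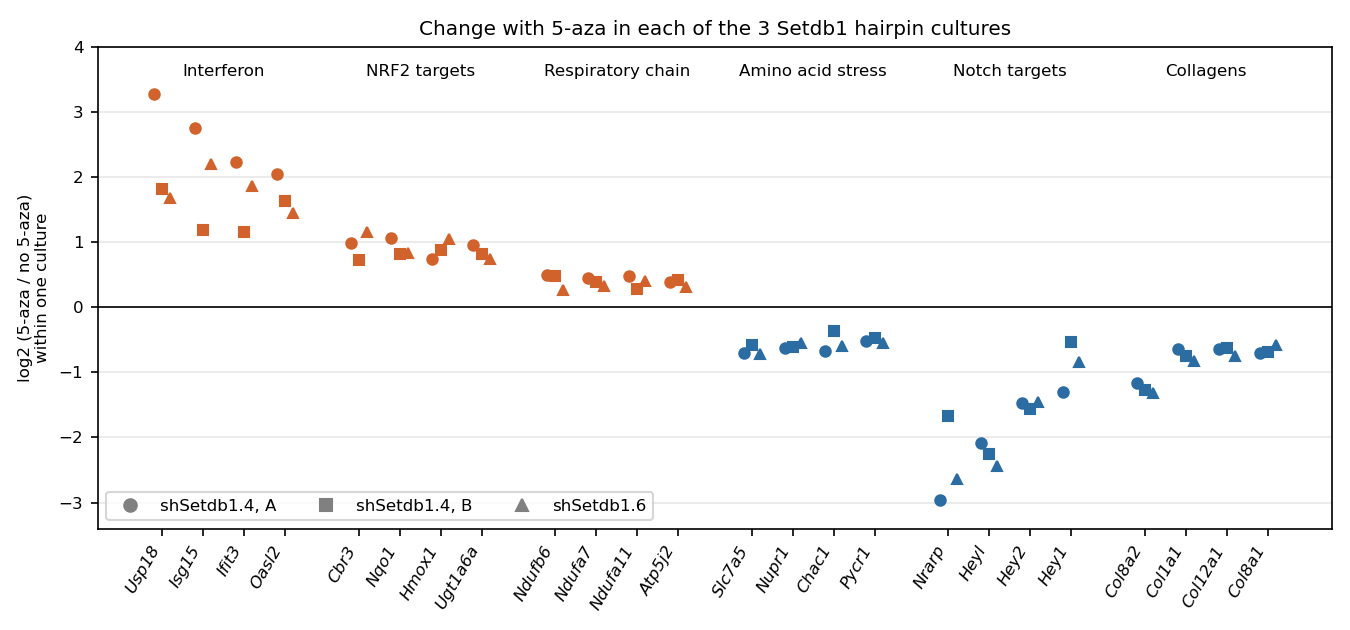
Change with 5-aza within each of the 3 Setdb1 hairpin cultures (log2 ratio of treated to untreated RPM; circles and squares shSetdb1.4 replicates A and B, triangles shSetdb1.6) for the named genes of 6 lists. All 3 cultures lie on the same side of 0 for each of the 24 genes, which for Usp18, Nrarp and Heyl follows from a condition of their choice. Usp18 and Isg15 spread most, with the A culture highest for all 4 interferon genes.

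Extracellular matrix genes were lowered more often than raised, among them genes of elastic fibres and network collagens. Of 26 tested collagens 7 fell and 1 rose (7 and none after centring), with a median of -0.42. In the fit with the culture as a block 15 fell and 2 rose. The rise, of 1 gene, was lost without any of 4 libraries, the untreated A or shSetdb1.6 and the 5-aza A or B. Without 1 library 4 to 11 fell: 4 without the untreated A, the untreated shSetdb1.6, the 5-aza B or the 5-aza shSetdb1.6 library, and 11 without the 5-aza A library. Col8a2 fell from 12.8, 12.6 and 11.4 to 5.74, 5.24 and 4.6 RPM (-1.25 ± 0.11, adjusted p = 6.44e-05) and its partner Col8a1 from 754, 717 and 642 to 464, 446 and 428 RPM (-0.66 ± 0.06, adjusted p = 5.85e-05). Col12a1, which decorates collagen fibrils, fell by 0.67 on the log2 scale. Col1a1, the main fibrillar collagen, stood at 11420, 8068 and 8405 RPM without and 7352, 4811 and 4750 RPM with 5-aza (-0.73 ± 0.23, adjusted p = 0.0337). Its call was lost without the untreated A (adjusted p = 0.129), the untreated shSetdb1.6 (0.0543), the 5-aza B (0.118) or the 5-aza shSetdb1.6 library (0.11). Col1a2 and Col3a1 were not called (-0.57 ± 0.21 and -0.45 ± 0.29), but were called lower with the culture as a block (adjusted p = 0.000557 and 0.0143).

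Among 51 other matrix proteins and crosslinking enzymes 11 fell and 4 rose (11 and 2 after centring). In the fit with the culture as a block 26 fell, and 7 to 19 fell when 1 library was left out. The lowest counts came without the untreated A, the 5-aza B or the 5-aza shSetdb1.6 library, and without the 5-aza A library 19 fell. Without the untreated A library 2 rose. Without the 5-aza A or the 5-aza luciferase library of the control cells 17 fell. Eln, elastin, fell from 25.5, 14.6 and 14.6 to 9.58, 5.12 and 3.51 RPM (-1.66 ± 0.33, adjusted p = 0.00403). Fbln5, which assembles elastic fibres, fell from 687, 560 and 561 to 395, 305 and 285 RPM (-0.88 ± 0.14, adjusted p = 0.00139). Fndc1, a fibronectin type III protein, fell from 16.1, 7.55 and 6.58 to 3.84, 2.19 and 1.48 RPM. The untreated A culture was highest for each of these, and within every culture the treated value was the lower. For Eln and Fndc1 the latter follows from separate groups, a condition of their choice. Fn1, fibronectin, was not called, at 11490, 9491 and 9419 RPM and 10580, 9374 and 8665 RPM (-0.09 ± 0.12). Tnxb and Emilin2 rose by 0.90 ± 0.18 and 0.58 ± 0.09.

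Cartilage genes moved in both directions. Of 18 tested, 6 fell and 4 rose (6 and 3 after centring), and 3 fell without the untreated A or the 5-aza B library. Without the untreated A, the 5-aza B or the 5-aza shSetdb1.6 library 1, 2 and 2 rose. Acan, the cartilage proteoglycan aggrecan, stood at 4.38, 2.82 and 3.34 RPM without and 0.48, 0.577 and 0.518 RPM with 5-aza (-2.72 ± 0.81, adjusted p = 0.0266). Its groups were far apart, but separate groups were a condition of its choice. Its call was lost when any of 5 of the 6 Setdb1 libraries was left out, with an adjusted p of up to 0.0826. The exception was the untreated B library. In the fit with the culture as a block the adjusted p was 0.000423. Col11a1 fell from 276, 168 and 161 to 116, 75 and 65.7 RPM (-1.24 ± 0.29) and the proteoglycan Fmod by 0.82 on the log2 scale. Col9a3 rose by 0.45 ± 0.11. Sox9, the master regulator of cartilage, was higher (0.37 ± 0.10), a call lost without the untreated A (adjusted p = 0.0706), the 5-aza B (0.0668) or the 5-aza shSetdb1.6 library (0.0563). Of 9 bone genes 3 fell and none rose, also after centring, and with the culture as a block 4 fell and 2 rose. Pth1r, the parathyroid hormone receptor, fell by 0.46 on the log2 scale.

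Matrix proteases and inhibitors rose in 5 and fell in 7 of 33 cases (4 and 8 after centring), and with the culture as a block in 10 and 11. Mmp9, a gelatinase, fell from 7.11, 3.42 and 4.29 to 1.34, 1.11 and 0.959 RPM (-2.06 ± 0.49, adjusted p = 0.00978). Adamts5 and Adamts12, which cleave proteoglycans and other matrix proteins, fell by 0.82 and 0.88 on the log2 scale. Plau, urokinase, rose from 86.3, 95.4 and 92.1 to 124, 128 and 133 RPM (0.49 ± 0.07), the protease inhibitor Serpine2 rose by 0.57 ± 0.11 and Timp2 by 0.37 ± 0.09. Other adhesion genes among the 12 largest falls were Gjb2, the gap junction protein connexin 26, from 149.5, 115 and 136 to 42.2, 39.8 and 40.1 RPM (-1.71 ± 0.16, adjusted p = 7.46e-05), and Cbln1, a secreted synapse organiser (-1.67 ± 0.17). The repressor Prdm1 fell from 3.66, 2.28 and 2.15 to 1.42, 0.677 and 0.575 RPM (-1.67 ± 0.37), and Pmp2, a lipid-binding myelin protein, fell by 1.65 on the log2 scale. Tnn, tenascin N, was lower as well (-1.64 ± 0.50, adjusted p = 0.0289), a call lost without the untreated A (adjusted p = 0.114), untreated B (0.0662), 5-aza B (0.112) or 5-aza shSetdb1.6 library (0.08).

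Some division genes fell. Of 61 tested mitosis genes 13 fell and none rose (22 and none after centring), with a median of -0.18. Blocked by culture, 29 fell, and 48 were lower in 3 of 3 pairs (3009 of all 13134 genes). The count depended on single libraries: 3 fell without the 5-aza A library, 1 without the 5-aza B, 2 without the untreated shSetdb1.6 and 20 without the 5-aza shSetdb1.6 library. Mki67, the proliferation antigen, fell from 239.6, 245 and 301 to 179.6, 202 and 216 RPM (-0.39 ± 0.08, adjusted p = 0.00615). Ccnb1 and Cdk1, the cyclin and kinase of mitotic entry, were not called (-0.07 ± 0.11 and -0.01 ± 0.12). Of 49 genes of the G1/S transition and DNA replication 2 fell and 1 rose (8 and 1 after centring), and with the culture as a block 17 fell and 4 rose. Without the untreated B or the 5-aza shSetdb1.6 library 4 and 6 fell, and without the 5-aza A library 2 rose. Pola1, the replicative polymerase subunit, fell by 0.34 on the log2 scale and Rfc1, a clamp loader subunit, by 0.17, while E2f1 rose from 27.2, 30.3 and 30.3 to 35.5, 37.8 and 38.5 RPM (0.35 ± 0.07).

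Several ligands and receptors of growth factor and morphogen pathways fell. Of 19 IGF axis genes 5 fell and 3 rose (5 and 2 after centring), and 3 fell without the untreated B or the 5-aza B library. Igf2, the fetal growth factor, fell from 969, 889.5 and 848 to 544, 437 and 400.1 RPM (-0.98 ± 0.13, adjusted p = 0.000509). Igfbp2 fell by 0.61 and Irs2 by 0.34 on the log2 scale, and Igfbp6 rose from 28, 29.5 and 28.9 to 46.8, 39.8 and 42.1 RPM (0.57 ± 0.06). Of 53 BMP and TGF-beta genes 7 rose and 6 fell (6 and 11 after centring), and with the culture as a block 19 and 15. Without the untreated shSetdb1.6 or the 5-aza B library 4 rose. Bmp4 fell from 19.5, 17.5 and 12.5 to 10.5, 6.27 and 5.41 RPM (-1.20 ± 0.21), the ligand Tgfb2 fell by 0.57 and the receptor Bmpr2 by 0.42 on the log2 scale. The coreceptors Tgfbr3 and Eng rose by 0.86 ± 0.14 and 0.60 ± 0.06.

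Of 41 Wnt genes 7 fell and 4 rose (9 and 3 after centring). Blocked by culture, 11 fell. Without the 5-aza A library 11 fell as well, and 2 rose without the untreated shSetdb1.6 or the 5-aza B library. The R-spondin receptors moved in opposite directions: Lgr5 fell from 12.3, 12.4 and 8.44 to 6.96, 4.72 and 4.41 RPM (-1.05 ± 0.20, adjusted p = 0.00373), and Lgr6 rose from 2.4, 2.82 and 3.75 to 4.68, 9.02 and 10.1 RPM (1.36 ± 0.24, adjusted p = 0.00266). Rspo3, a ligand of both, fell by 0.95 and the transcription factor Lef1 by 0.69 on the log2 scale. Of 29 YAP-responsive genes 5 fell and 2 rose (8 and 1 after centring), with the culture as a block 8 and 7 respectively, and 9 fell without the 5-aza A library of the control cells. On omission of the untreated A or the 5-aza B library 1 rose, and without the 5-aza A library 4. Wisp1 fell from 953, 684 and 650 to 509, 365 and 347 RPM (-0.91 ± 0.20) and Ctgf, also a matricellular protein, by 0.34 on the log2 scale. Axl, a receptor kinase, rose by 0.30 ± 0.06. Of 48 axon guidance genes 13 fell and 7 rose (15 and 5 after centring). On omission of the untreated A, untreated B, 5-aza B or 5-aza shSetdb1.6 library 5, 8, 6 and 7 fell. Plxna4 fell from 20.6, 16.4 and 19.5 to 12.3, 11.8 and 12 RPM (-0.64 ± 0.15), and Plxna2 rose from 32, 38.6 and 34.6 to 45.7, 57 and 54.9 RPM (0.58 ± 0.13). Epha3, an ephrin receptor, stood at 34, 21.1 and 21.4 RPM without and 15.5, 8.66 and 7.25 RPM with the drug (-1.32 ± 0.33), a call lost without the untreated A library (adjusted p = 0.0516).

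Genes of the silencing machinery moved in both directions. Of 17 DNA methylation enzymes and readers 2 rose (11.8%) and 2 fell (11.8%), beside 21.4% and 7.51% of all genes. After centring 1 rose and 4 fell, and with the culture as a block 4 and 4. When a library was left out 1 or 2 rose and 1 to 3 fell. The count that rose was 1 without the untreated A or any of the 3 treated libraries, and the count that fell was 1 without the untreated A, the untreated shSetdb1.6, the 5-aza B or the control 5-aza B library. Dnmt1, the maintenance methyltransferase that 5-aza traps, was not called, at 104, 98.9 and 119 RPM and 94.5, 98.7 and 108 RPM (-0.10 ± 0.07, adjusted p = 0.281). Dnmt3b, a de novo enzyme, fell from 1.24, 1.09 and 1.57 to 0.76, 0.776 and 0.786 RPM (-0.73 ± 0.15, adjusted p = 0.00471), and the reader Zbtb38 rose by 0.36 ± 0.06. Of 24 factors of lysine 9 methylation and silencing 4 fell (16.7%) and 1 rose (4.17%), and 9 fell and 1 rose after centring. Smchd1, a structural protein of the inactive X chromosome, fell from 113, 108 and 119 to 94.7, 98.9 and 101 RPM (-0.21 ± 0.04). Atrx and Morc2a fell by 0.20 and 0.14 on the log2 scale, and the methyltransferase Ehmt2 rose by 0.20 ± 0.04. Trim28, which recruits Setdb1, was not called (-0.01 ± 0.04). Of 16 genes of nucleoside transport and activation 4 rose and none fell (3 and 1 after centring), with the culture as a block 6 and 2. There was 1 fall without the untreated A, the 5-aza shSetdb1.6 or either of the control 5-aza A and luciferase libraries. Cda, the cytidine deaminase that inactivates cytidine analogues, rose from 0.568, 0.595 and 0.692 to 2.06, 1.97 and 2.11 RPM (1.73 ± 0.22, adjusted p = 0.0005). Uck1 and Uckl1, kinases of the first activation step, rose by 0.37 ± 0.07 and 0.22 ± 0.05.

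Several gene classes known for epigenetic control were counted in the same way. Raised were 25% of imprinted, 5.71% of Hox, 21.2% of core histone and 5.33% of Zfp genes, beside 21.4% of all genes. Lowered were 13.9%, 20%, 12.1% and 7.21%, beside 7.51%. Of 36 imprinted genes 9 rose and 5 fell (4 and 6 after centring), and 3, 5, 4 and 4 rose without the untreated A, untreated shSetdb1.6, 5-aza B and 5-aza shSetdb1.6 libraries. The neighbours Igf2 and H19 both fell, H19 from 674, 519 and 530 to 441, 318 and 268 RPM (-0.77 ± 0.17, adjusted p = 0.00677). Blcap rose by 0.37 ± 0.04. Of 35 Hox genes 7 fell and 2 rose (10 and none after centring), and with the culture as a block 7 rose and 10 fell. On omission of the untreated A, untreated B or untreated shSetdb1.6 library 1 rose, and without the 5-aza B library none. Hoxd13 fell from 44.5, 44.4 and 46.2 to 32.2, 35.2 and 35.9 RPM (-0.39 ± 0.06) and Hoxb8 by 0.51 on the log2 scale. None of 13 tested protocadherin genes of the clusters was called by limma, with or without centring, or by voom, and 1 fell with the culture as a block. Without the 5-aza A library 2 fell, and 1 without the 5-aza B or the control 5-aza A library. Unadjusted p-values were under 0.05 for 2 of the 13. Of 33 core histone genes 7 rose and 4 fell (6 and 4 after centring), with the culture as a block 11 and 5, and 4 rose without the untreated shSetdb1.6 or the 5-aza B library. Hist1h2ao fell by 0.70 and Hist1h2ai by 0.36 on the log2 scale, and Hist1h3d rose by 0.54 ± 0.13. Histone copies share sequence, and their mRNA mostly lacks a poly(A) tail. Of 319 zinc finger genes named Zfp 17 rose and 23 fell (12 and 41 after centring), and with the culture as a block 27 rose. On omission of the untreated A or the 5-aza B library 8 and 10 rose, and 9 and 6 fell. Without the untreated or the 5-aza shSetdb1.6 library 15 and 13 fell. Zfp219 rose by 0.43 ± 0.07 and Zfp521 fell by 0.69 on the log2 scale.

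Genes of other mesenchymal and neural programmes gave mixed results. Of 32 smooth muscle and contractile genes 6 rose and 4 fell (4 and 9 after centring), with the culture as a block 7 and 7. The count that rose was 2 without the untreated A library and 3 without the untreated shSetdb1.6, the 5-aza A or the 5-aza shSetdb1.6 library. Ldb3, of the sarcomeric Z line, rose from 18.2, 23.4 and 20.5 to 26.6, 29.8 and 30.9 RPM (0.50 ± 0.11), and the integrin Itga8 fell from 54, 55.1 and 42.1 to 39.4, 32.1 and 28.2 RPM (-0.61 ± 0.12). Of 13 skeletal muscle genes 3 rose and 1 fell (1 and 2 after centring), with the culture as a block 4 and 2. On omission of the untreated A, the untreated B or the 5-aza shSetdb1.6 library 1 rose, and without the 5-aza B, both control luciferase and the control 5-aza A libraries in turn 2 fell. Dysf, of membrane repair, rose by 0.24 ± 0.05, and the transcription factor Mef2c fell by 0.42 on the log2 scale. Of 19 adipocyte genes 5 rose (26.3%, beside 21.4% of all genes) and none fell. After centring 2 rose and none fell, and with the culture as a block 10 and 1. Omitting the untreated A, the untreated shSetdb1.6 or the 5-aza B library 2 rose, and without the 5-aza shSetdb1.6 library 3. Plin4 and Plin2, which coat lipid droplets, rose by 1.38 ± 0.31 and 0.33 ± 0.05. Pparg, the regulator of fat cell formation, was higher in each pair, at 4.23, 10.7 and 8.42 RPM and 8.64, 16.4 and 16.3 RPM. It was not called (0.87 ± 0.44, adjusted p = 0.156) but passed with the culture as a block (adjusted p = 0.00343).

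Of 18 neuronal and synaptic genes 5 rose and none fell (4 and 1 after centring, 6 and 2 with the culture as a block). Omitting the untreated A or the 5-aza B library 2 rose, and without either 5-aza A library 1 fell. Celf4, an RNA-binding protein, rose from 20.6, 28.8 and 25.9 to 38, 46.2 and 47.2 RPM (0.81 ± 0.15), and the calcium channel Cacna1a rose by 0.34 ± 0.06. Of 23 steroid and retinoid genes 4 rose and 4 fell (2 and 6 after centring). Without the untreated shSetdb1.6 or the 5-aza B library 1 rose, and 2 without the untreated A, the 5-aza A, the 5-aza shSetdb1.6 or either untreated non-silencing library. Without the untreated B, the untreated shSetdb1.6 or the 5-aza B library 2 fell, and 1 without the 5-aza shSetdb1.6 library. Aldh1a3, which makes retinoic acid, fell from 33, 25.8 and 30.8 to 13.6, 16.6 and 18.8 RPM (-0.88 ± 0.13, adjusted p = 0.0011).

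The fibroblast label was checked against 14 markers, which were not equally high. Vim, Col1a1, Col1a2, Thy1 and Prrx1 were each at 488 RPM or more in every library. Lum, Fap and Dcn were low, with at most 2.32, 5.49 and 11.2 RPM in any of the 6 libraries. The 14 markers summed to 19310 to 24400 RPM without and 15080 to 19370 RPM with 5-aza. Of these 14, 2 rose and 2 fell (1 and 3 after centring), with the culture as a block 2 and 6. None fell without the untreated A, the 5-aza B or the 5-aza shSetdb1.6 library, 1 without the untreated shSetdb1.6 library and 5 without the 5-aza A library, and 1 rose without the untreated A library. S100a4 rose from 239.8, 312 and 320.5 to 386, 457 and 508 RPM (0.63 ± 0.15). Pdgfrb, the PDGF receptor beta, was lower, at 450.1, 341 and 339 RPM and 281, 208 and 198 RPM (-0.72 ± 0.19), a call lost without the untreated A (adjusted p = 0.0622), the 5-aza B (0.0578) or the 5-aza shSetdb1.6 library (0.0546). Erythroid markers were nearly absent, with 8 of 10 under 0.1 RPM in every library. Of 9 hepatocyte markers 6 were under 0.1 RPM, and Alb and Ttr had 0 reads. Apob rose without them, and the sum of the list went from 1.81 to 1.955 RPM without to 9.742 to 12.4 RPM with the drug. Endothelial markers summed to 118.1 to 143.8 RPM without and 51.39 to 60.83 RPM with 5-aza. Flt1, the receptor VEGFR1, made up most of that sum and fell from 136, 110.4 and 111 to 55.2, 46.4 and 45.2 RPM (-1.28 ± 0.16), and the sialomucin Emcn fell by 1.52 on the log2 scale. Cdh5 and Pecam1, which define endothelium, were not tested: Cdh5 had 0.215 to 0.316 RPM without and 0.76 to 0.959 RPM with the drug, and Pecam1 0.068 to 0.0954 and 0.30 to 0.441 RPM. The sum of the list thus fell while these levels were higher. Of 9 neural crest and glial markers S100b and Mbp were tested, and S100b rose by 1.44 ± 0.23. Mbp, the myelin basic protein, was lower, at 6.02, 6.51 and 6.37 RPM without and 4.3, 5.1 and 4.64 RPM with 5-aza (-0.43 ± 0.12, adjusted p = 0.0179), a call lost without the 5-aza A (adjusted p = 0.052) or the untreated B library (0.0515). Sox10 stayed under 0.1 RPM, and the list summed to 7.176 to 7.704 RPM without and 6.904 to 7.127 RPM with the drug.

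The comparison with control hairpin cells asked whether Setdb1 depletion altered the response to the drug. In the controls 18.8% of genes were called for 5-aza. Of the 182 genes that changed at least 2-fold in Setdb1 hairpin cells, 119 were called in the same direction in the controls. The difference between the responses was called for 51 of 13134 genes (0.388%), with 701 at an unadjusted p under 0.05, and all 51 had the lower log2 response in Setdb1 hairpin cells. Of the 51, 40 have predicted, clone-based or pseudogene names and 5 are ribosomal protein genes. Reads of processed pseudogenes and of their parent genes may be exchanged. The remaining 6 were Krt8, Itgam, Enpp2, Psenen, Wdr38 and Srp54a. Between 29 and 43 were called when 1 library was left out, the fewest without the 5-aza B library of the Setdb1 cells. Blocked by culture, 169 were called, 133 with the lower and 36 with the higher response in Setdb1 hairpin cells. With no filter 62 were called, 10 of them with the higher response. Quantile normalization gave 48 with 3 higher, and the log2(RPM + 1) scale 59 with 5 higher. The uniform direction of the 51 thus depends on filter and scale.

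Gm2174 showed the pattern of the pseudogenes. It stood at 0.989, 0.901 and 1.05 RPM without and 1, 0.936 and 0.959 RPM with 5-aza in Setdb1 hairpin cells, and in control cells at 0.919, 0.647 and 0.701 RPM without and 3.66, 3.667 and 4.353 RPM with it. The difference of the log2 responses was -2.40 ± 0.20 (adjusted p = 0.000117). Gm17430, Rpl27a-ps2 and Gm8618 gave differences of -2.24 ± 0.19, -2.30 ± 0.34 and -1.98 ± 0.31. Rpl27a-ps2 and Gm8618 were under 1 RPM in every hairpin library except the treated controls. They passed the filter only through these, so their differences follow in part from it. The call for Gm8618 was lost without the untreated B (adjusted p = 0.053), the 5-aza B (0.0592), the control 5-aza B (0.0692) or the 5-aza luciferase library (0.0712). Every treated control library exceeded every other library for these genes, and the Setdb1 hairpin libraries stayed near the untreated level. The 5-aza library with no named hairpin held Gm2174 at 0.491, Gm17430 at 1.275, Rpl27a-ps2 at 0.343 and Gm8618 at 0.098 RPM. These levels were below those of the treated control cells. That library has no untreated partner in the series, so a response cannot be read from it. It carries the name PGK and held 20.4 M reads. The study's methods used a PGK sample to find variants, and whether it is this library is not stated. Its cells may therefore differ from the hairpin cells in genotype. Among ribosomal protein genes Rps6 (-1.13 ± 0.12) and Rps13 (-0.95 ± 0.13) differed likewise. Enpp2, the lysophospholipase autotaxin, fell in Setdb1 hairpin cells from 3.26, 3.18 and 3.05 to 1.94, 1.59 and 1.36 RPM (-0.97 ± 0.16) and had a mean of 0.508 RPM without and 0.679 RPM with the drug in controls (difference -1.39 ± 0.23, adjusted p = 0.0192). Without 1 library the difference for Enpp2 lost its call in 9 of 12 fits, with adjusted p-values of up to 0.0758. Krt8 had 0.018, 0.022 and 0.021 RPM in untreated control cells, about the value of 1 read, and 0.861, 0.912 and 0.808 RPM in treated ones. Its difference on the log2 scale was -2.53 ± 0.39 (adjusted p = 0.0139), while the step in RPM was the larger in Setdb1 hairpin cells. The call was lost without the 5-aza B (adjusted p = 0.0612), the 5-aza shSetdb1.6 (0.0562) or the control 5-aza B library (0.0663). On the log2(RPM + 1) scale the difference was 0.45 and after quantile normalization 0.09, so the direction for Krt8 depends on the scale.

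**Figure D4:**
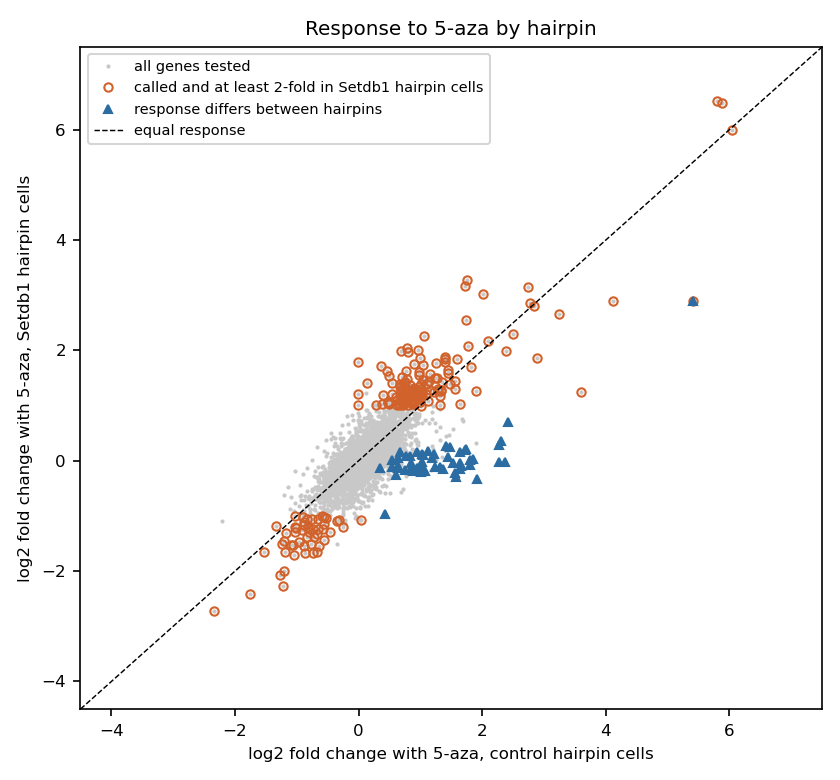
Log2 fold change with 5-aza in control hairpin cells (x axis) against that in Setdb1 hairpin cells (y axis) for 13134 genes; orange circles are the 182 genes called and changed at least 2-fold in Setdb1 hairpin cells, blue triangles the 51 genes whose response differed between hairpins, and the dashed line marks equal responses. The triangles all lie below that line, and most lie near 0 on the y axis.

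For 5 of the lists above, the responses of the arms are given side by side. Counts are of members called in either direction. Of 43 interferon genes 24 were called here and 14 in the controls (medians 0.31 and 0.35), and of 29 NRF2 targets 24 and 14 (0.51 and 0.32). Of 37 amino acid stress genes 21 and 3 were called (-0.21 and -0.11), and of 26 collagens 8 and 5 (-0.42 and -0.01). Mitosis genes had 13 of 61 called here and 44 in the controls (-0.18 and -0.39). None of these lists had a member whose response was called different between hairpins, so no difference between the arms was shown for any of them. At an unadjusted p under 0.05 for the difference (limma) there were 3, 0, 3, 0 and 8 members, beside 701 of 13134 genes. Other lists held called differences: 4 among ribosomal protein genes, of which 15 rose in controls and 5 here, and 1 each among Notch processing, keratin and macrophage genes. The macrophage gene was Itgam, which passed the filter only through treated control libraries. The arms share no libraries.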

How the data were processed

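Poly(A) RNA of 13 mouse fibroblast cultures was sequenced as single-end reads, and 6 libraries enter the main comparison. The authors deposited 1 table of log2 RPM (reads per M reads of the library, M standing for mega) for 25965 gene intervals on mm10. The submitters' processing notes name CASAVA 1.4, and the read counter is not given in the sources used here. A gene with 0 reads is held in the deposited log2 values at the level of 0.9 reads, so its fitted fold depends on that floor. Values are not divided by gene length. All values corresponded to whole reads within 0.05 reads, and 41.9 to 58.8 M reads per library were recovered from the steps. No read model is the main test, because the unit is not counts.

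The filter was 1 RPM or more in 3 or more of 12 hairpin libraries (13134 genes). The deposited log2 RPM entered limma 3.58.1 (R 4.3.3; a mean for each of 4 groups of 3 libraries, moderated variances with a trend), with Benjamini-Hochberg adjustment across the 13134 genes and a threshold of 0.05. The fit was run on simulated data in which every library was drawn independently, so that run does not cover the correlation between paired libraries. Residuals of libraries that share a culture label were correlated in the Setdb1 arm (0.634, 0.413 and 0.472 in the A, B and shSetdb1.6 cultures). In the control arm the values were 0.149, 0.1 and 0.586 (A, B and luciferase), so pairing by label was weak for control A and B. Replicate 1 of each arm carried another hairpin, and hairpin and culture cannot be told apart there. The fit with the culture as a block is given where it changes the call of a named gene or moves the count of a list by over 1.5 times. Alternatives were median centring, quantile normalization, other filters and pseudocounts, the groups compared alone, voom on the recovered reads and leaving out each library. The members and gene lists were chosen with earlier results of these data known. Named genes are the 12 largest rises and falls with separate groups, a mean of at least 1 RPM in the higher group and no predicted name, the 5 largest rises with predicted names, up to 4 called members of each list in each direction, Setdb1, and the 5 largest differences between hairpins in each direction. Other members are named as not called. Aldh18a1, Asns, Atf4, Ccng1, Enpp2, Ifih1, Ifit1, Irf7, Mdm2, Myc, Srxn1, Tap1, Rps6 and Rps13 were named for their roles after their values were seen. The library with no named hairpin entered no test, and its levels are given as values.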

Additional observations from a re-analysis of the deposited data

Results flagged for a closer look

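The response to 5-aza differed between Setdb1 hairpin and control hairpin cells, by the interaction term of limma, for the genes below, and each difference is the log2 response in Setdb1 hairpin cells minus that in control cells. It was -2.53 for Krt8 (adjusted p = 0.0139), -2.40 for Gm2174 (0.000117), -2.30 for Rpl27a-ps2 (0.00944), -2.24 for Gm17430 (0.000113) and -1.98 for Gm8618 (0.0161). Among genes with other names it was -1.39 for Enpp2 (0.0192), -1.22 for Psenen (0.00274) and -1.76 for Itgam (0.0392). Psenen, a gamma-secretase subunit, had a log2 response of 0.25 in Setdb1 hairpin cells and of 1.48 in control cells. Itgam, an integrin of myeloid cells, had responses of -0.10 and 1.66. Itgam, Rpl27a-ps2 and Gm8618 reached 1 RPM only in treated control libraries, so their differences follow in part from the filter. The calls for Psenen, Itgam, Rpl35 and Rpsa were not followed over the fits that left out 1 library. The ribosomal protein genes Rps6, Rps13, Rpl35 and Rpsa gave differences of -1.13 (0.00092), -0.95 (0.00464), -0.78 (0.00281) and -0.73 (0.00453). Each was raised by the drug in control cells and was not called in Setdb1 hairpin cells. Hairpin and Setdb1 genotype cannot be told apart in this difference.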

How the results depend on the processing

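Over 267 named genes and their alternatives, 5594 of 6075 values kept direction and side of the threshold, 478 kept the direction but not the call, and 1 changed sign (Setdb1, whose difference ran from -0.23 to 0.01 when 1 library was left out). Of 266 named called genes, 178 were called in all 12 fits that left out 1 library. The count of called genes ranged from 2191 to 4193 over those fits, the share of rises from 71.9% to 76.6%, and the genes that differed between hairpins from 29 to 43. Centring on the median gene gave 52.3% rises, quantile normalization 55.2%, and centring together with the culture as a block 49.9%. The block moved the genes that differed between hairpins to 169, and to 174 with centring, and fitting only the compared groups with the block called 6092 genes. A minimum of 5 RPM left 19 such differences. The difference for Krt8 changed sign with quantile normalization (0.09) and with log2(RPM + 1) (0.45). Centring with the block, and the compared groups with the block, were chosen after seeing the data. For the other shifts the cause was not tested. Depth limits genes at a few reads, and 3 cultures per group limit the rest.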

Other observations

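The library from cells given 5-aza with no named hairpin belongs to no group, and its levels are given as values. It carries the name PGK and held 20.4 M reads, and its cells may differ in genotype from the hairpin cells. Of the 12 genes that rose most in Setdb1 hairpin cells, 8 were above all untreated hairpin libraries in it. These were Dazl (2.94 RPM), Dnahc6 (1.23 RPM), Tex19.1 (1.57 RPM), Krt8 (3.19 RPM), Apob (14.4 RPM), Rhox5 (5.84 RPM), Asb5 (7.75 RPM) and Usp18 (8.63 RPM). Hsd3b6 and Prl2c2 had 0 reads there, Prl2c3 had 0.442 RPM and Selp 1.67 RPM. Of the other genes flagged for a difference between hairpins, Rps6 stood at 6.328, Rps13 at 3.189, Rpl35 at 10.449 and Rpsa at 12.902 RPM. Each was below all treated control libraries, as was Psenen (1.423 RPM), while Itgam (6.279 RPM) and Enpp2 (1.717 RPM) were above them.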
